A study of Mus musculus with 8 samples.

Results

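Microglia and brain macrophage genes were followed in the cortex of mice at postnatal day 3 (P3) by RNA sequencing. The genes were 33 symbols picked by known role, as homeostatic microglia genes, general myeloid genes, border macrophage genes or genes of activated microglia, with no threshold on the measured values. All 33 were among the 16525 genes that had enough counts to be tested, of 30608 genes with at least 1 count in some sample. The comparison was between 4 control and 4 dcKO_hGFAP-Cre cortices, and shows how the immune cell genes of the cortex stood when the progenitors of its neurons and glia had lost BAF155 and BAF170, the scaffolding subunits of the BAF chromatin remodeling complex. Labels of the samples give P3 cortex on a C57BL/6J background as BAF cKO or Control. Titles of the samples name the groups MUT and WT, and the series text calls the controls wild types. Per the methods of the study, mutants were BAF155 fl/fl; BAF170 fl/fl; hGFAP-Cre pos/+ and controls were BAF155 fl/+; BAF170 fl/+; Cre pos/+, so that both groups carried Cre and the controls could lose 1 allele of each gene in the same cells. The hGFAP-Cre transgene is driven by a human GFAP promoter, which is active in radial glia of the dorsal telencephalon (dTel), and mutants died soon after birth. Smarcc1, which encodes BAF155, fell to 0.511-fold (edgeR adjusted p = 5.44e-06) and Smarcc2, which encodes BAF170, to 0.587-fold (edgeR adjusted p = 2.28e-05), in tissue that also holds cells without Cre activity.

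Microglia are the resident macrophages of the brain tissue. They descend from yolk sac progenitors that enter the embryonic brain, and not from cortical radial glia, and they depend on signals from neighbouring cells through the CSF1 receptor and TGF-beta. Macrophages of the meninges, vessels and choroid plexus, called border macrophages, share most of their genes with microglia but carry more Mrc1, Pf4, Lyz2 and Cd163. After birth microglia clear dying cells and weak synapses, and in that state raise lysosomal genes, the TREM2 pathway and genes such as Gpnmb, Lgals3 and Clec7a.

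The sequence in front of a gene is where transcription factors of the myeloid lineage bind, and PU.1, encoded by the member gene Spi1, recognises purine-rich sites. Promoter windows of 250 bases before to 50 bases after the start were found in the RefSeq table (GRCm38.p6) for 27 of the 33 genes, with 33 windows in all. The PU.1 core GAGGAAG, searched on both strands, lay in 10 of the 33 windows, or 30.3%, and in 13.6% of all 32851 windows of the table. This core contains the GGAA that many other ETS factors also bind. Of the 10 genes with the core, 6 were higher in the mutant cortex, and of the 17 genes without it 13 were. The upstream 250 bases are shown, 5′ to 3′ on the gene's strand, for 3 genes that hold the core and differ in their results, with the core or its reverse complement CTTCCTC in capitals. Trem2 (chr17:48346151-48346400, plus strand) rose in every mutant, Pf4 (chr5:90772185-90772434, plus strand) was above the controls in 3 of 4 mutants, and P2ry13 (chr3:59210883-59211132, minus strand) was not past the threshold.
Trem2: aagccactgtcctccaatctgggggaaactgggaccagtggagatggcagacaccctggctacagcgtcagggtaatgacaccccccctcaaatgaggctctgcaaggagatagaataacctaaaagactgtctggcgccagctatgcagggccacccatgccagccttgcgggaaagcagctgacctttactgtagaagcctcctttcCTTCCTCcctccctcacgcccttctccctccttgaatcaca
Pf4: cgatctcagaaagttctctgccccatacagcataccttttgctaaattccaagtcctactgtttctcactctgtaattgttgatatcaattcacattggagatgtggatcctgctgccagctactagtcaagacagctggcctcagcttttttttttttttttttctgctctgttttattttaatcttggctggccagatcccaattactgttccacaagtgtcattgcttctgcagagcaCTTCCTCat
P2ry13: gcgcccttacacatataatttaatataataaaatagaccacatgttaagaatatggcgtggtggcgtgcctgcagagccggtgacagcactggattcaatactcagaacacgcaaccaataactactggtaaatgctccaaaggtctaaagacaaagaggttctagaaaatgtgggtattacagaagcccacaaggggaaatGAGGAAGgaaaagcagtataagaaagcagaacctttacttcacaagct
The core ends close to the start in Pf4, beginning 9 bases before it, and begins 41 bases before it in Trem2 and 48 bases before it in P2ry13. An element of the MAF type, TGCTGA, was in 18.2% of the windows of these genes and in 19.5% of all windows. The interferon response type element was in 9.09% and 3.44%. A match of letters is a description of the window and not a measured binding site.

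Most of the 33 genes were higher in the mutant cortex, and none was lower. At an edgeR adjusted p under 0.05, 24 of 33 were higher, beside 18.6% of all genes tested (3074 of 16525), and 0 were lower, beside 18.9% (3128 of 16525). No member was lower at an unadjusted p under 0.05 either, and none was lower by DESeq2 or limma-voom. With library totals in place of TMM, the calls over all genes split into 4584 higher and 2102 lower, and 24 members were again higher and 0 lower. The median log2 fold change over the 33 genes was 1.03, a fold of 2.05, and over all genes tested it was 0.02. In 23 of the 33 genes every mutant sample lay above every control sample, which was so for 16.7% of all genes tested. The sum of the 33 genes rose from 309 ± 48.0 to 532 ± 45.0 CPM (counts scaled by the TMM-normalized library size; mean ± SD, n = 4 per group). In tissue of mixed cells, a larger number of microglia or macrophages and more RNA of these genes per cell cannot be told apart. Neuron markers, which make up far more of the RNA, were lower in 5 of 5 cases, with a sum of 6832 to 7774 CPM in control and 4707 to 5318 CPM in mutant samples, and the part of this shift in the CPM of the other genes was not tested.

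**Figure D1:**
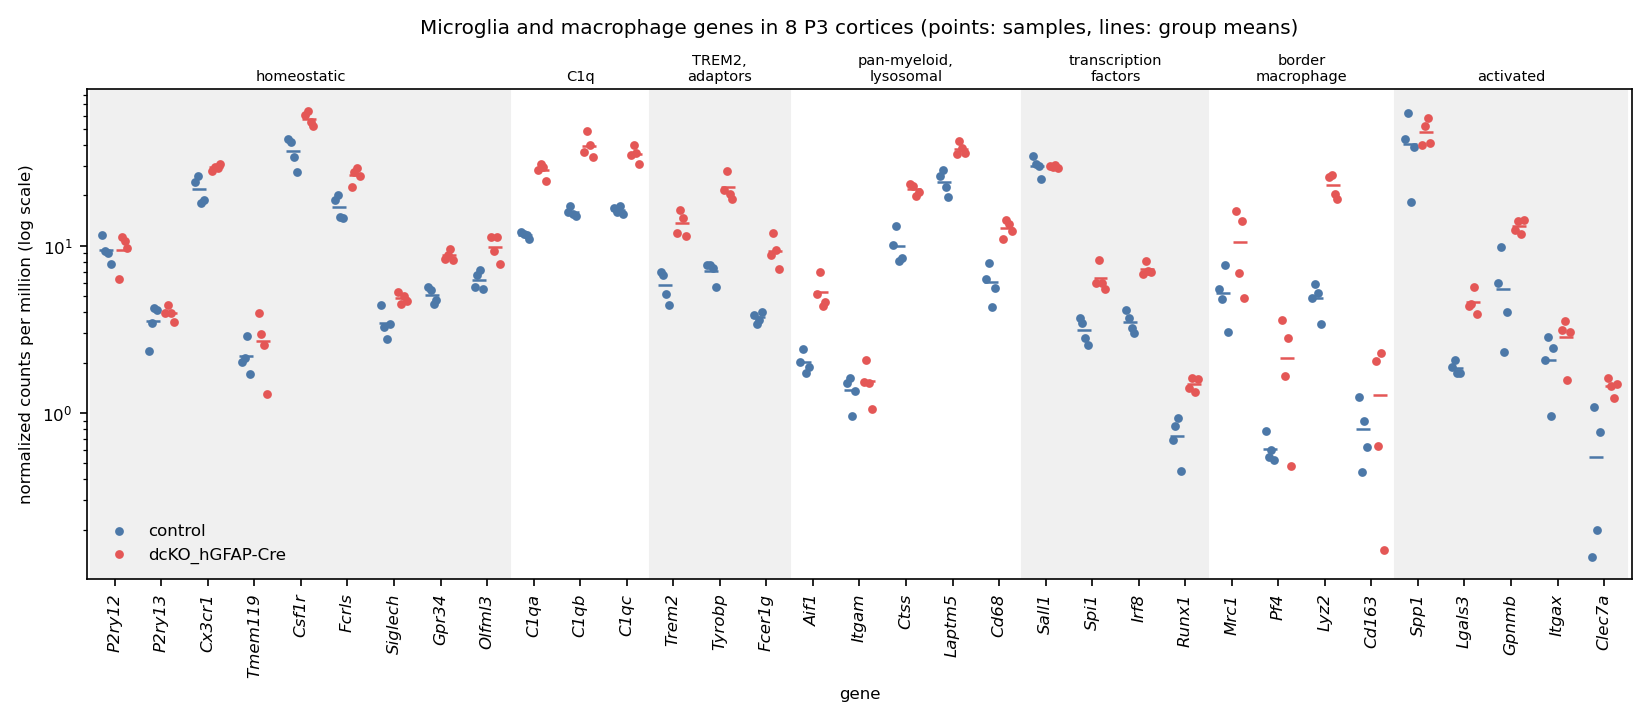
Normalized CPM (log axis) of each of the 33 genes in the 4 control (blue) and 4 dcKO_hGFAP-Cre (red) samples, with lines at the group means and genes ordered by role. The red points lie above all blue points for 23 genes, among them all genes of the C1q and TREM2 groups. They overlap the blue points for P2ry12, P2ry13, Tmem119, Itgam, Sall1, Spp1, Itgax and the border genes Mrc1, Pf4 and Cd163.

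Medians differed between the groups of genes. The median log2 fold change was 0.49 for the 9 homeostatic microglia genes, 1.29 for the 3 C1q chains, 1.32 for Trem2 and its adaptors, 1.09 for the 5 pan-myeloid and lysosomal genes, 1.04 for the 4 transcription factors, 1.39 for the 4 border macrophage genes and 1.27 for the 5 genes of activated microglia. Single genes ranged from -0.02 (Sall1) to 2.25 (Lyz2).

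**Figure D2:**
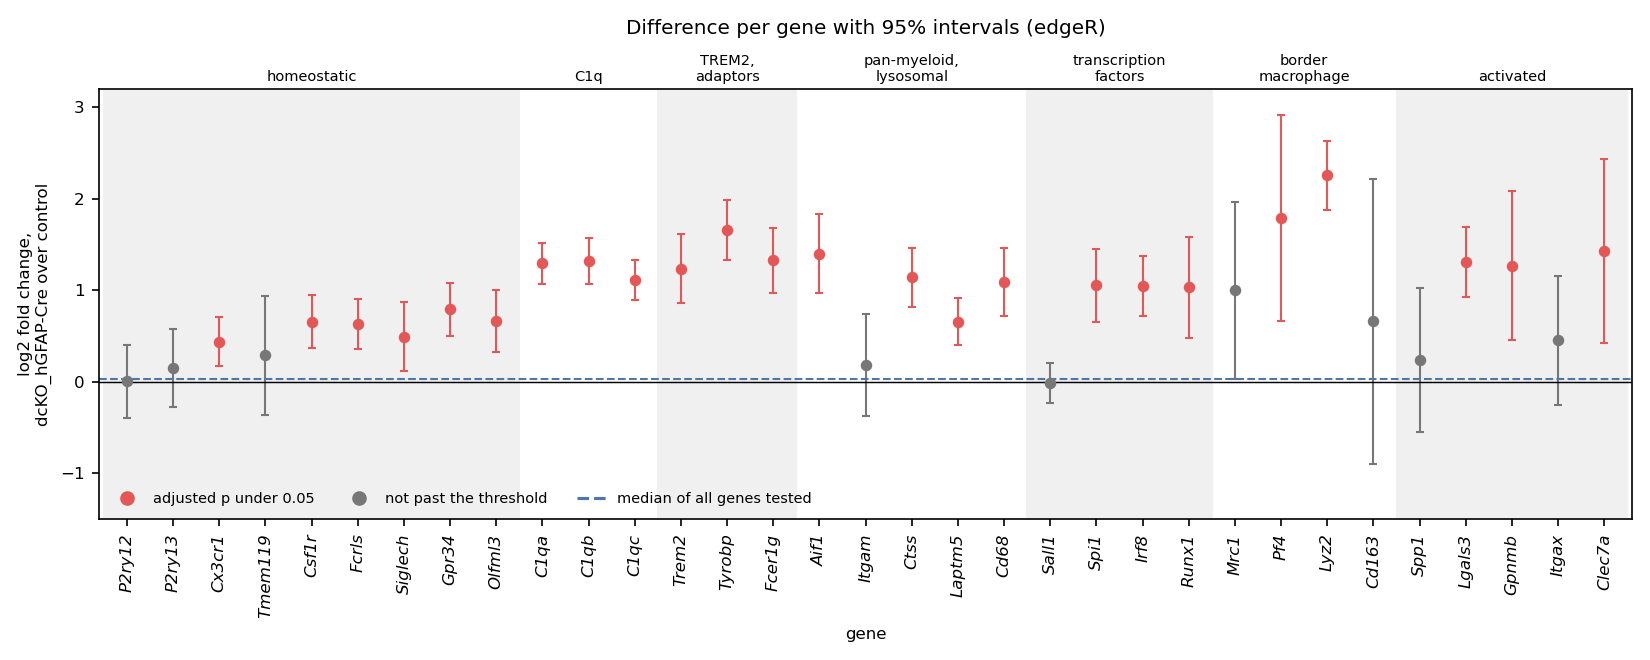
Log2 fold change of each gene, dcKO_hGFAP-Cre over control, with its 95% interval from edgeR. Red points passed an adjusted p of 0.05, grey points did not, and the dashed line is the median of all genes tested (0.02). The homeostatic genes lie between 0.01 and 0.79 and the C1q and TREM2 genes between 1.11 and 1.66.

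Among the homeostatic genes, which mark the resting state of mature microglia, 6 of 9 were higher, beside 18.6% of all genes tested. The other 3 were the ADP receptors and Tmem119. Csf1r, the receptor for the survival factors CSF1 and IL-34, had 43.7, 41.6, 33.8 and 27.6 CPM in control and 60.1, 63.9, 54.6 and 51.8 CPM in mutant samples, with no overlap. It rose 1.57-fold (95% interval 1.29 to 1.92, edgeR adjusted p = 0.00257). Of the 5774 exonic bases of Csf1r, 873 overlap Hmgxb3 on the opposite strand, and the strand setting of the counts is not given. Cx3cr1, the receptor for the neuronal chemokine fractalkine, had 24.1, 26.2, 18.03 and 18.8 CPM in control and 28.1, 29.5, 29.3 and 30.8 CPM in mutant samples. The groups did not overlap, and the gene rose 1.35-fold (edgeR adjusted p = 0.0148), but the call rested on control replicates 3 and 4, without which the adjusted p was 0.0535 and 0.0562.

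The largest rise in this group was that of Gpr34, a receptor for lysophosphatidylserine, with 5.66, 5.42, 4.48 and 4.76 CPM in control and 8.38, 8.81, 9.59 and 8.24 CPM in mutant samples. Every mutant was above every control, and the fold was 1.73 (edgeR adjusted p = 0.00074). Fcrls, a scavenger receptor of the Fc receptor-like family, rose 1.55-fold (edgeR adjusted p = 0.00239) and Olfml3, a secreted olfactomedin protein, 1.58-fold (edgeR adjusted p = 0.00541), each without overlap. Siglech, a sialic acid-binding lectin, rose from 3.46 ± 0.698 to 4.85 ± 0.338 CPM, or 1.41-fold (edgeR adjusted p = 0.0390). That call was close to the threshold, and was lost when any sample other than control replicate 1 or dcKO_hGFAP-Cre replicate 4 was left out, with adjusted p up to 0.127, and with no filter on low counts (edgeR adjusted p = 0.0696).

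P2ry12, the ADP receptor that steers microglial processes toward injury and the most used marker of the homeostatic state, stood apart from these genes. It had 11.6, 9.32, 9.10 and 7.74 CPM in control and 6.29, 11.3, 10.6 and 9.63 CPM in mutant samples. The groups overlapped, with mutant replicate 1 below and control replicate 1 above all other samples, and the means were 9.45 and 9.46 CPM, with a fold of 1.004 whose 95% interval was 0.762 to 1.32 (edgeR adjusted p = 0.983). The related receptor P2ry13, which lies beside it on chromosome 3, had a fold of 1.11 (95% interval 0.826 to 1.49, edgeR adjusted p = 0.577). Tmem119, a surface protein that appears as microglia mature, had 2.03, 2.12, 2.89 and 1.70 CPM in control and 3.98, 2.97, 2.56 and 1.30 CPM in mutant samples, and its interval of 0.778 to 1.92 was the widest of the homeostatic genes (edgeR adjusted p = 0.474). For these 3 genes a change of the size seen in Gpr34, the largest of the group, lay outside the interval for P2ry12 and P2ry13 and inside it for Tmem119. The median fold of the 9 homeostatic genes, 1.41, lay outside the interval for P2ry12 only. That interval still overlapped the 1.125 to 1.629 of Cx3cr1, so a difference between these genes was not shown.

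The chains of C1q, the molecule that starts the classical complement pathway and that in the brain comes mostly from microglia, rose together, each by a higher fold than any homeostatic gene. Their genes lie side by side on the minus strand of chromosome 4 (mm10), C1qb at 136880129 to 136886187, C1qc at 136889804 to 136893065 and C1qa at 136895917 to 136898803. C1qa had 12.1, 11.7, 11.5 and 10.9 CPM in control and 28.4, 30.9, 29.7 and 24.3 CPM in mutant samples, a 2.45-fold rise (edgeR adjusted p = 4.01e-06). C1qb had 15.9, 17.3, 15.4 and 15.1 CPM in control and 36.2, 48.4, 40.0 and 34.1 CPM in mutant samples, a 2.49-fold rise (edgeR adjusted p = 7.18e-06). C1qc had 16.8, 15.9, 17.4 and 15.4 CPM in control and 34.8, 40.0, 35.9 and 30.8 CPM in mutant samples, a 2.16-fold rise (edgeR adjusted p = 8.62e-06). Control samples lay within narrow ranges for all 3 chains, mutant replicate 2 was the highest and replicate 4 the lowest each time, and no mutant value came near a control value.

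Trem2, a receptor for lipids and cell debris, signals through the adaptor Tyrobp (DAP12), and Fcer1g, the gamma chain of Fc receptors, carries the same kind of activation motif. Trem2 had 6.95, 6.66, 5.15 and 4.44 CPM in control and 11.97, 16.3, 14.6 and 11.4 CPM in mutant samples, and rose 2.35-fold (edgeR adjusted p = 0.000196). Tyrobp had 7.64, 7.69, 7.34 and 5.62 CPM in control and 21.4, 28.1, 20.5 and 19.1 CPM in mutant samples, and rose 3.16-fold (95% interval 2.52 to 3.95, edgeR adjusted p = 8.16e-06). Fcer1g had 3.87, 3.40, 3.59 and 4.03 CPM in control and 8.81, 11.9, 9.45 and 7.28 CPM in mutant samples, and rose 2.51-fold (edgeR adjusted p = 8.61e-05). The groups were apart for all 3 genes, and mutant replicate 2 was the highest sample for each of them.

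The pan-myeloid genes mark macrophages of any kind. Aif1, which encodes the cytoskeletal protein IBA1 used to stain microglia, rose 2.64-fold (2.01 ± 0.296 to 5.29 ± 1.19 CPM, edgeR adjusted p = 0.00022). The lysosomal protease gene Ctss rose 2.20-fold (9.91 ± 2.28 to 21.7 ± 1.64 CPM, edgeR adjusted p = 0.000121), Cd68, a lysosomal membrane glycoprotein of phagocytes, 2.12-fold (edgeR adjusted p = 0.000501), and Laptm5, another lysosomal membrane protein, 1.58-fold (edgeR adjusted p = 0.00125). All 4 were without overlap. Itgam, the CD11b integrin chain, was at 1.52, 1.63, 0.963 and 1.35 CPM in control and 1.54, 2.08, 1.501 and 1.06 CPM in mutant samples, with a fold of 1.13 (95% interval 0.769 to 1.66, edgeR adjusted p = 0.617). Its count is uncertain, because 3450 of its 5024 exonic bases are shared on the same strand with the gene model Gm49368, which had 0 counts in every sample.

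Of the transcription factors, the 3 that act throughout the myeloid lineage rose by similar amounts. Spi1, which encodes PU.1, had 3.68, 3.45, 2.79 and 2.53 CPM in control and 5.99, 8.22, 6.00 and 5.52 CPM in mutant samples, a 2.07-fold rise (edgeR adjusted p = 0.000915). Irf8, a partner of PU.1, rose 2.06-fold (edgeR adjusted p = 0.000268) and Runx1, a factor of blood cell development, 2.05-fold from a low level of 0.727 ± 0.209 CPM (edgeR adjusted p = 0.00747). Sall1, which among brain macrophages is a factor of microglia but is also expressed by neural progenitors, had 34.6, 30.8, 30.1 and 24.9 CPM in control and 29.8, 29.4, 30.4 and 29.3 CPM in mutant samples. The groups overlapped, the fold was 0.989 (95% interval 0.848 to 1.15, edgeR adjusted p = 0.915), and its sign turned with library totals, to a log2 fold change of 0.10.

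The border macrophage genes split into Lyz2 and the rest. Lyz2, the lysozyme of macrophages, had 4.83, 5.92, 5.18 and 3.40 CPM in control and 25.9, 26.5, 20.5 and 19.1 CPM in mutant samples. This was the largest fold of the 33 genes, 4.77 (95% interval 3.67 to 6.20, edgeR adjusted p = 2.99e-06), and the lowest mutant was well above the highest control. Its near-identical neighbour Lyz1 had 0 to 2 counts in each sample, and how reads that match both were counted is not given in the sources used here. Pf4, a chemokine of border macrophages that platelets also hold, had 0.782, 0.542, 0.598 and 0.521 CPM in control and 3.59, 1.65, 2.80 and 0.483 CPM in mutant samples. Mutant replicate 4 lay below every control, the other mutants above, and the rise of 3.45-fold passed in edgeR (adjusted p = 0.0188) but not in the exact permutation test (p = 0.143), with limma-voom (adjusted p = 0.0953), with no filter on low counts (edgeR adjusted p = 0.0668) or without control replicate 2, 3 or 4 (edgeR adjusted p = 0.0532 to 0.0587).

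Mrc1, the mannose receptor CD206, had 5.48, 4.78, 7.64 and 3.06 CPM in control and 16.2, 6.91, 14.0 and 4.89 CPM in mutant samples. Mutant replicates 1 and 3 were above every control and replicates 2 and 4 within the control range, and the fold of 1.996 did not pass (edgeR adjusted p = 0.0966). It passed without mutant replicate 4 (edgeR adjusted p = 0.0235) and with the sequencing lane in the fit (edgeR adjusted p = 0.0092). Cd163, a scavenger receptor for haemoglobin, had the same 2 mutants on top, with 1.24, 0.444, 0.896 and 0.625 CPM in control and 2.05, 0.636, 2.29 and 0.151 CPM in mutant samples (edgeR adjusted p = 0.483). Without mutant replicates 1 and 3 its log2 fold change turned to -1.11, and that of Pf4 was 0.76 (edgeR adjusted p = 0.234).

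Among the mutants, markers of the meninges were higher in replicates 1 and 3 than in the others and lowest in replicate 4, as Mrc1, Pf4 and Cd163 were. The sum of 5 meningeal fibroblast genes was 198, 63.3, 149 and 16.3 CPM in mutant replicates 1 to 4 and 36.4 to 126 CPM in control, with 0 of 5 genes past the threshold. Among the controls the sum and Mrc1 were highest in replicate 3, but Pf4 and Cd163 were highest in replicate 1 (0.782 and 1.24 CPM). For Lyz2, the C1q chains and Trem2 the highest mutant was replicate 2 instead. Under every alternative run, the fit without mutant replicates 1 and 3 among them, the lowest log2 fold change was 2.04 for Lyz2 and 1.03 for a C1q chain (C1qc). The sum of 5 choroid plexus markers was 603 and 1159 CPM in mutant replicates 1 and 2, 19.1 and 3.02 CPM in replicates 3 and 4 and 2.66 to 12.4 CPM in control. Lyz2 had the same order among the mutants, with 26.5, 25.9, 20.5 and 19.1 CPM in replicates 2, 1, 3 and 4. The C1q chains and Trem2 did not, as each was higher in replicate 3 than in replicate 1. The part of meningeal or choroid plexus tissue in the rise of Lyz2 and Pf4 was not tested beyond these values.

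**Figure D3:**
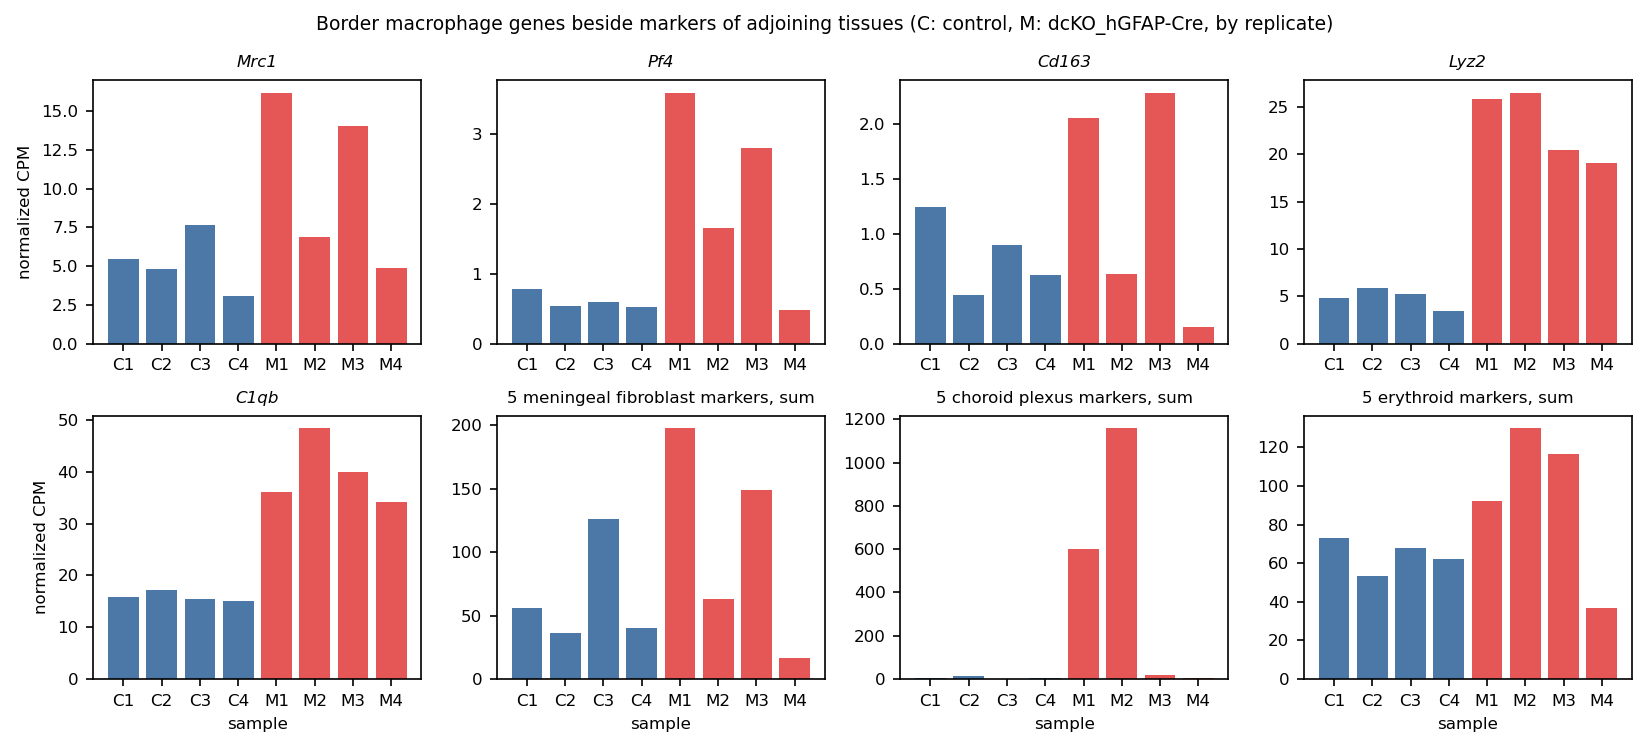
Normalized CPM per sample (C1 to C4 control in blue, M1 to M4 dcKO_hGFAP-Cre in red) of 4 border macrophage genes, C1qb and the summed markers of meningeal fibroblasts, choroid plexus and red blood cells; bars start at 0. Mrc1, Pf4 and Cd163 are highest in M1 and M3, as is the fibroblast sum, whereas Lyz2 is at 19.1 CPM or more and C1qb at 34.1 CPM or more in all 4 mutants.

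From a list of 11 further genes of border macrophages, 6 could be tested. Of these, 2 were higher and 0 lower, beside 18.6% and 18.9% of all genes tested. Stab1, a scavenger receptor of macrophages and some endothelial cells, rose from 23.7 ± 4.22 to 38.8 ± 5.34 CPM, or 1.64-fold (edgeR adjusted p = 0.00203). Dab2, an endocytic adaptor, and Colec12, a scavenger collectin, had folds of 1.27 and 1.28 and did not pass (edgeR adjusted p = 0.163 and 0.539). The other gene that passed was Ms4a7, named here after its values were seen, a membrane protein that separates border macrophages from microglia. It had 0.230, 0.0986, 0.266 and 0.104 CPM in control and 1.33, 1.53, 1.33 and 0.876 CPM in mutant samples, a 6.92-fold rise from a level of few counts (edgeR adjusted p = 0.000106). Lyve1, a hyaluronan receptor, and F13a1, a clotting factor subunit, also named after their values were seen, were highest in mutant replicates 1 and 3 and lowest in replicate 4 among the mutants, as Mrc1 was, and did not pass (edgeR adjusted p = 0.131 for F13a1). Lyve1 had 4.66, 1.95, 4.81 and 0.574 CPM in mutant replicates 1 to 4 and 0.312 to 1.79 CPM in control, where replicate 3 was again the highest (edgeR adjusted p = 0.093).

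Genes of activated microglia were higher in 3 of 5 cases, beside 18.6% of all genes tested. Lgals3, which encodes galectin-3, had 1.89, 2.07, 1.73 and 1.74 CPM in control and 4.36, 4.45, 5.63 and 3.89 CPM in mutant samples, a 2.48-fold rise with no overlap (edgeR adjusted p = 0.000159). Gpnmb, a glycoprotein of phagocytic microglia, had 5.98, 9.81, 2.32 and 3.99 CPM in control and 12.4, 14.1, 11.7 and 14.2 CPM in mutant samples. Controls spread over a wide range and mutants over a narrow one, and the rise of 2.41-fold (edgeR adjusted p = 0.0225) was lost without control replicate 4 or mutant replicate 2 or 4 (edgeR adjusted p = 0.0567 to 0.0716) or with no filter on low counts (edgeR adjusted p = 0.0921). Clec7a, the receptor dectin-1, had 0.138, 1.084, 0.199 and 0.764 CPM in control, down to 3 counts, and 1.63, 1.44, 1.23 and 1.48 CPM in mutant samples. Its rise of 2.68-fold (edgeR adjusted p = 0.0296) was lost without control replicate 1 or 3 or mutant replicate 1, 2 or 4, with adjusted p up to 0.0793. Spp1, which encodes osteopontin and is also made by cells other than microglia, had 43.6, 62.1, 18.4 and 38.7 CPM in control and 40.1, 52.0, 58.0 and 41.1 CPM in mutant samples, and did not pass (edgeR adjusted p = 0.616). Its exons share 309 of 1648 bases on the same strand with the gene model Gm42793, which had 0 to 2 counts in each sample. Itgax, the CD11c integrin chain, had a fold of 1.37 with a 95% interval of 0.838 to 2.23 (edgeR adjusted p = 0.296).

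Read per kilobase of exon, a rough way to set genes side by side, the order of levels differed between the groups. The divisor was all annotated exons of a gene joined, from 667 bases for Tyrobp to 12025 bases for Runx1. Joined exons can be longer than any 1 transcript, so the rank of a gene depends in part on its annotation. In control cortex Spp1 stood highest at 24.7 CPM per kilobase, followed by C1qb at 14.7, C1qa at 11.1 and Tyrobp at 10.6. In mutant cortex C1qb stood at 36.5 CPM per kilobase and Tyrobp at 33.4, above Spp1, and C1qa was at 27.2, C1qc at 18.3 and Lyz2, which was at 3.67 in control, at 17.5. Csf1r rose from 6.35 to 9.97 and P2ry12 stood at 3.71 and 3.72 CPM per kilobase. Runx1 was the lowest of the 33 in both groups, with 0.0605 and 0.124 CPM per kilobase.

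To see whether the genes moved alike, each was divided by the summed CPM of the 9 homeostatic genes in its own sample. That sum was 88.3 to 118 CPM in control and 144 to 162 CPM in mutant samples. Of the 24 members outside the homeostatic list, 13 had a higher share of this sum in every mutant than in every control, beside 2.46% of all genes tested (406 of 16525), 1 had a lower share and 10 overlapped. The share of Tyrobp was 6.37% to 7.54% in control and 13.2% to 17.4% in mutant samples, and that of Lyz2 3.85% to 5.32% and 13.1% to 17.3%. C1qb moved from 13.5% to 17.2% in control to 23.7% to 29.9% in mutant samples. A lower share in every mutant was common over all genes tested, at 49.3% (8148 of 16525). Sall1 was the gene outside the homeostatic list with a lower share, 26.1% to 30.9% in control and 18.1% to 20.4% in mutant samples. Within the homeostatic list, P2ry12 was at 7.90% to 9.84% of the sum in control and 4.19% to 6.98% in mutant samples, Gpr34 was higher and 7 genes overlapped. Against the summed C1q chains instead, the share was higher in every mutant for 2 of the 21 genes outside both lists, Tyrobp and Lyz2, beside 0.472% of all genes tested (78 of 16525). It was lower in every mutant for all 9 homeostatic genes, beside 83.6% of all genes tested (13814 of 16525), so most genes gave the same. The ratio depends on the genes chosen as its base.

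**Figure D4:**
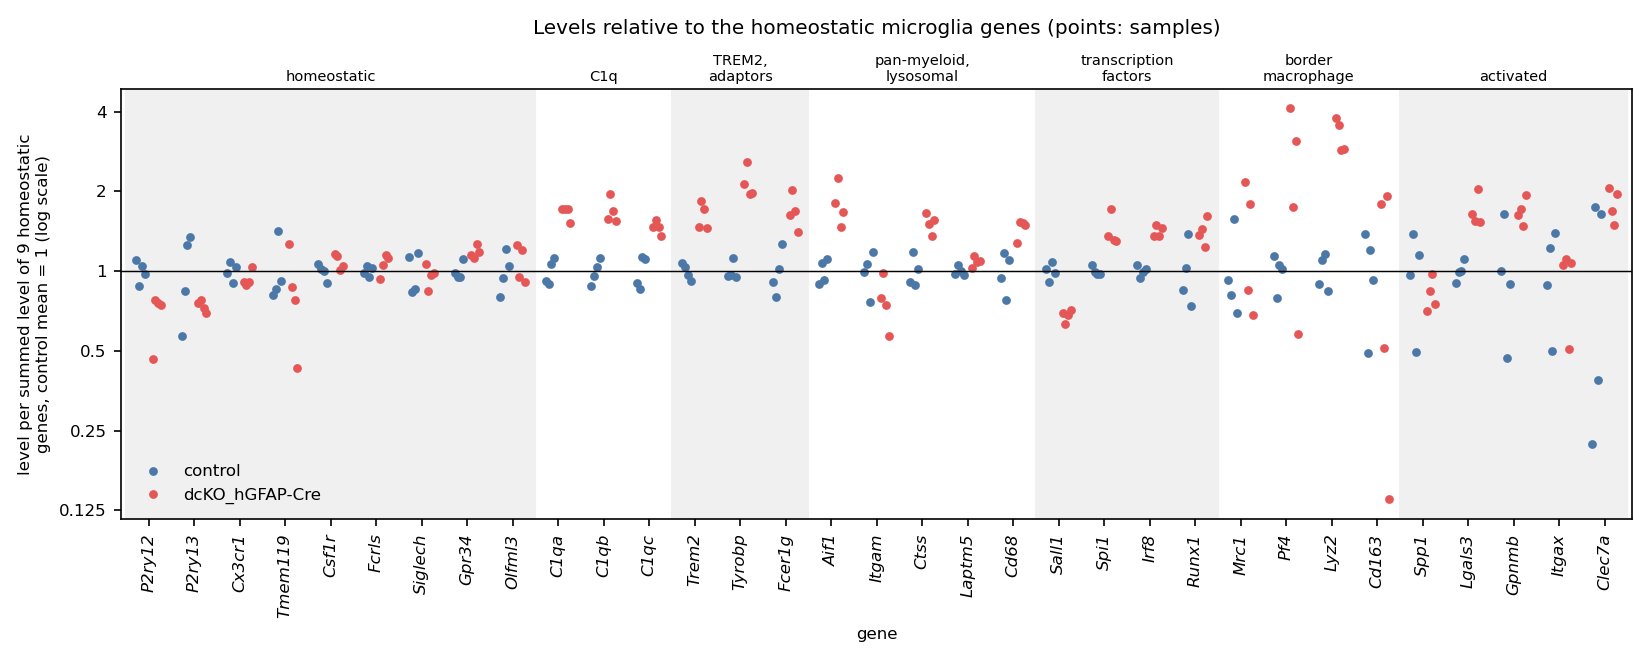
Level of each gene divided by the summed level of the 9 homeostatic genes in the same sample, scaled so that the control mean is 1 (log axis), for control (blue) and dcKO_hGFAP-Cre (red) samples. Tyrobp and Lyz2 lie at a ratio of means of 2.16 and 3.28, Sall1 and P2ry12 at 0.681 and 0.688, and most homeostatic genes overlap near 1.

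A second list of 28 microglia genes outside the 33 gave 19 higher and 1 lower, beside 18.6% and 18.9% of all genes tested. The median log2 fold change of the list was 0.76. Arhgdib, which is among its genes with the highest levels, had a fold of 1.23 and did not pass (edgeR adjusted p = 0.208). The gene that was lower was Slco2b1, an organic anion transporter, at 0.763-fold (edgeR adjusted p = 0.0333). Fcgr3, an Fc receptor that pairs with the Fcer1g chain, rose 2.96-fold (4.96 ± 0.324 to 14.7 ± 1.54 CPM, edgeR adjusted p = 3.32e-06). Slco2b1 and Fcgr3 were named after their values were seen.

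Further genes of activated and phagocytic microglia were divided, with 5 higher and 1 lower of 14 tested, beside 18.6% and 18.9% of all genes tested. Their median log2 fold change was 0.15. Ctsb, a lysosomal protease, rose 1.21-fold (405 to 490 CPM, edgeR adjusted p = 0.0151), while the lipid carriers Apoe and Fabp5 had folds of 0.950 and 0.922 (edgeR adjusted p = 0.881 and 0.700). Apoe had 299.4, 351.5, 709.3 and 238.3 CPM in mutant replicates 1 to 4 and 378.1 to 462.5 CPM in control. Mutant replicate 3 thus lay above every control and the other mutants below. Ctsb, Apoe and Fabp5 are also expressed by other glia of the cortex. The gene that was lower was Lpl, lipoprotein lipase, at 0.375-fold (edgeR adjusted p = 1.42e-06), named after its values were seen. In control it was at 141 to 162 CPM, above the 88.3 to 118 CPM of the 9 homeostatic genes summed. Which cells of the tissue its RNA came from was not tested.

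Most signals that maintain microglia did not pass the test, which was also so for most of all genes tested. Of 11 genes for survival ligands and TGF-beta signaling, 2 were higher and 1 was lower, beside 18.6% and 18.9% of all genes tested. The median log2 fold change was 0.01, and over all genes tested it was 0.02. Csf1 and Il34, the ligands of the CSF1 receptor, had folds of 1.04 and 1.16 (edgeR adjusted p = 0.748 and 0.380). Tgfb1 rose 1.40-fold (edgeR adjusted p = 0.0286) and Tgfb3 1.56-fold (edgeR adjusted p = 0.00201), whereas Tgfb2 had a fold of 1.17 (edgeR adjusted p = 0.0755). Tgfbr1, the signaling chain of the TGF-beta receptor, had 119, 121, 111 and 119 CPM in control and 48.9, 49.1, 46.1 and 49.5 CPM in mutant samples, and fell to 0.412-fold (edgeR adjusted p = 4.10e-07). It is expressed by many cell types of the cortex. Tgfbr2, Smad3, Nrros, Itgav and Itgb8, which encode the second receptor chain, its signal transducer, a protein that holds latent TGF-beta on microglia and integrin chains that release it, had folds of 0.887 to 1.004 and did not pass.

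Among ligands by which neurons address microglia, Cx3cl1, the fractalkine bound by the receptor Cx3cr1, fell to 0.779-fold (160 to 124 CPM, edgeR adjusted p = 0.00743) and Cd200 to 0.776-fold (375 to 291 CPM, edgeR adjusted p = 0.00136). Cd47, a signal against uptake, had a fold of 0.791 (edgeR adjusted p = 0.0783), and Sirpa, its receptor, which neurons also express, rose 1.28-fold (edgeR adjusted p = 0.00428). Cd200r1, the receptor of CD200, was under the filter on low counts.

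For the uptake of dead cells, 4 of 9 genes tested were higher and 2 lower. Over all genes tested, 18.6% were higher and 18.9% lower. The opsonin gene Mfge8 had a fold of 0.748 (edgeR adjusted p = 0.112), Elmo1, which links engulfment receptors to the cytoskeleton, rose 1.30-fold (edgeR adjusted p = 0.0065), and the lipid exporter gene Abca1 had a fold of 1.098 (edgeR adjusted p = 0.395). Of the complement genes beyond C1q, 3 of 7 tested were higher and none was lower, and the regulator Serping1 and the component C4b had folds of 1.22 and 0.802 and did not pass (edgeR adjusted p = 0.506 and 0.673). Of 14 inflammatory cytokine and sensor genes only 6 could be tested, with 3 higher and 1 lower. The pattern receptor gene Tlr2 rose 1.90-fold (1.005 to 1.90 CPM, edgeR adjusted p = 0.00456), Nos2, the inducible nitric oxide synthase, fell to 0.468-fold (edgeR adjusted p = 0.00178), and Nfkbia, an inhibitor of NF-kappaB, had a fold of 0.990 (edgeR adjusted p = 0.943). The cytokine gene Il1a rose 2.86-fold from a level of few counts (0.304 to 0.845 CPM, edgeR adjusted p = 0.00446), with no overlap. Il1b, Tnf, Il6 and Ccl2 were under the filter and not tested, with group means of at most 0.348 CPM, and Ccl2 was higher in every mutant (0.242 to 0.470 CPM) than in every control (0.0347 to 0.138 CPM). These 5 cytokine genes were named after their values were seen.

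Markers of blood leukocytes had few counts. No marker of monocytes (6 genes), neutrophils (8 genes) or mast cells (4 genes) passed the filter, and their sums were at most 1.07, 1.37 and 1.39 CPM in any sample. Of these 3, the neutrophil sum was the one that was higher in every mutant (0.636 to 1.37 CPM) than in every control (0.345 to 0.631 CPM). The monocyte marker with the highest level, Plac8, had means of 0.166 and 0.454 CPM, and Ccr2, a defining receptor of recruited monocytes, 0.0455 and 0.0588 CPM. Of 7 lymphocyte markers, Cd79b, which microglia also express, was the one tested and rose 3.02-fold (0.343 to 1.04 CPM, edgeR adjusted p = 0.00359). The sum of the 7 markers, Cd79b among them, was also higher in every mutant (1.03 to 1.95 CPM) than in every control (0.521 to 0.736 CPM). The neutrophil and mast cell markers with the highest levels, S100a9 and Cpa3, had means of at most 0.388 and 0.277 CPM.

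Other cell types of the tissue gave the setting for these values. Over all genes tested, 18.6% were higher and 18.9% lower. Red blood cell markers summed to 53.5 to 73.1 CPM in control and 37.1 to 130.0 CPM in mutant samples, with 0 of 5 past the threshold (Hbb-bs, a beta globin gene with a near-identical copy, edgeR adjusted p = 0.139). Endothelial markers were lower in 2 of 5 cases and higher in none, and the tight junction gene Cldn5 had a fold of 0.898 (edgeR adjusted p = 0.601). Astrocyte and radial glia markers passed in 0 of 5 cases (Fabp7, edgeR adjusted p = 0.411), but the mutants were not alike. Their sum was 1170, 1365, 2317 and 1018 CPM in mutant replicates 1 to 4 and 1444 to 1477 CPM in control. Mutant replicate 3 thus lay above every control, and mutant replicates 1, 2 and 4 lay below every control. Fabp7 and Slc1a3 made up most of this sum. Aqp4 had 9.92, 9.49, 53.05 and 9.72 CPM in mutant replicates 1 to 4 and 38.8 to 63.7 CPM in control. Gfap had 24.15, 32.2, 273.4 and 26.2 CPM in these mutants and 79.3 to 89.5 CPM in control. Slc1a3 and Aldh1l1 were also below every control in mutant replicates 1, 2 and 4. Fabp7 was below in replicates 1 and 4 and above in replicates 2 and 3. Of these, all but Fabp7 were named after their values were seen. Oligodendrocyte precursor markers were lower in 4 of 4 cases (the PDGF receptor gene Pdgfra, 0.720-fold, edgeR adjusted p = 0.00109). The neuronal tubulin gene Tubb3 fell to 0.663-fold (edgeR adjusted p = 0.000293). The leading fibroblast marker Col1a2, a collagen chain, had a fold of 1.36 (edgeR adjusted p = 0.691). Of the choroid plexus markers, 1 of 4 tested was higher. Ttr, the transthyretin of the choroid plexus, had a fold of 127.8 carried mostly by mutant replicates 1 and 2 (edgeR adjusted p = 0.0568). It had 584, 1128, 15.8 and 1.72 CPM in mutant replicates 1 to 4 and at most 9.37 CPM in control.

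Most genes had the same direction within each sequencing lane named in the labels. In lane 5, which held 2 samples per group, 30 of 33 genes were higher in the mutant mean, with a median log2 ratio of 0.82. Lanes 6 and 7 held 1 sample per group, and 31 and 28 of 33 genes were higher, with medians of 1.11 and 0.87. The same counts and medians over all genes tested were not made within lanes, so these are descriptions without a base. P2ry12 was lower in the mutants of lane 5 and higher in lanes 6 and 7.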

How the data were processed

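The authors prepared libraries with the TruSeq RNA kit, used featureCounts on reads aligned to mm10 and deposited, for each sample, 1 table of raw gene counts without normalization. The aligner, the annotation, the strand setting and the treatment of multiply matching reads are not given in the sources used here. Of 48709 identifiers, 48349 were matched to symbols in GENCODE M21 (mm10), which also gave exon lengths and overlaps. Totals were 21126713 to 31805395 counts in control and 22002784 to 32110285 counts in dcKO_hGFAP-Cre samples, and depth limits precision for genes under about 1 CPM. No replicate pair was alike within sampling noise, so each sample counted once, and labels do not say that samples are separate animals or litters, so p-values measure the spread between these samples, which may be in part technical.

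Groups came from the labels. Counts were tested in edgeR 4.0.16 under R 4.3.3 by its quasi-likelihood F test, with robust dispersions, TMM, the default filter on low counts (minimum count 10) and Benjamini-Hochberg adjustment over all 16525 genes tested, with a threshold of 0.05. The test was checked on simulated counts first. Higher and lower refer to dcKO_hGFAP-Cre over control, standard errors were computed from the fold change and F, and intervals are 95%. Exact permutation tests of single genes were two-sided over 70 arrangements, with a smallest p of 0.0286. Alternatives were DESeq2 (version 1.42.0), limma-voom (limma version 3.58.1), other scalings and filters, the replicate number or the sequencing lane in the fit, and leaving out samples. Leaving out mutant replicates 1 and 3 together was chosen after seeing the data. Gene names are matched by symbol.

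The 33 genes and all lists were chosen with earlier results of these data known, so counts over lists are descriptions beside the same count over all genes. Named were all 33 genes, of each further list the 3 genes tested with the highest mean CPM, all genes of the lists on survival ligands and on neuronal ligands, and of each cell type list its gene with the highest mean CPM, except that a few genes which this rule names are not reported here. Protein sequences planned for the adaptors and C1q chains are not used here.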

Additional observations from a re-analysis of the deposited data

Results flagged for a closer look

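Each of the 33 genes was examined in both groups for a sample far from the other 3, which made 66 groups, and 1 was found where chance alone gives about 3.3. In control cortex, Tyrobp was at 5.623 CPM in replicate 4, below the 7.337 to 7.69 CPM of the other 3 controls, so that most of the range lay in that gap. All 4 mutants were at 19.1 CPM or more.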

How the results depend on the processing

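Under the 18 alternatives, 16 of the 24 genes called higher passed each time they were tested, 8 lost the call at least once, and none of the 24 changed sign. The count of genes higher was 16 to 25, and it was 20 to 23 with single samples left out, and the count lower was 0 throughout. The median log2 fold change over the 33 genes was 0.84 to 1.07 with single samples left out, lowest without control replicate 4. It was 0.89 without dcKO_hGFAP-Cre replicates 1 and 2, the samples with the most choroid plexus RNA, where 16 genes were called in a smaller design. Without replicates 1 and 3 it was 0.76, and 18 genes were called. With library totals the median of all genes moved from 0.02 to 0.15, that of the 33 genes was 1.15, and Slco2b1 was no longer called. With the summed C1q chains as the base of the ratio, 2 of 21 genes were higher in every mutant in place of 13 of 24, and over all genes tested 0.472% in place of 2.46%. With no filter on low counts, Siglech, Pf4 and Gpnmb lost their calls. The replicate number did not pair the samples (correlations of deviations 0.18, -0.12, 0.18 and -0.08), and with the replicate block 25 genes were higher, Mrc1 being added. Signs turned only in genes not called. P2ry12 was at -0.0116 with DESeq2 and -0.0055 with the replicate block, and Sall1 at 0.0002 with limma-voom and 0.10 with library totals. Without mutant replicates 1 and 2, Tmem119 was at -0.19 and Itgam at -0.089, and without replicates 1 and 3 Tmem119 was at -0.0658 and Cd163 at -1.11. With single samples left out, P2ry12 ranged from -0.10 to 0.15, P2ry13 from -0.0042 to 0.25, Itgam from -0.0046 to 0.34, Sall1 from -0.11 to 0.0515 and Spp1 from -0.0103 to 0.51. The cause of these shifts was not tested. Lowest counts of 3 to 13 in a sample limit Clec7a, Pf4, Cd163 and Runx1.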
